A study of Mus musculus with 2 samples.

Results

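Kupffer cells, the macrophages that live inside the liver sinusoids, were examined in single-cell RNA sequencing of dissociated mouse liver. Cells of control mice (WT, genotype label CTRL) were taken from liver. Cells of N-LKO mice (genotype label NgBR KO) were taken from liver plus tumor, after albumin-Cre, which acts in hepatocytes, had removed Nus1, the gene for NgBR. NgBR is a subunit of the enzyme that makes dolichol, the lipid on which N-linked sugar chains are built. Both groups were fed for 16 weeks, with a diet that the sample titles call HFD and the treatment labels call WD, and neither group's labels state the age of the mice. According to the study's methods, hepatocytes and nonparenchymal cells were mixed in equal parts for WT, and a smaller portion of tumor cells was added for N-LKO. There was 1 library per group, so no test across animals can be made, and intervals, all at 95%, cover only counting error. Because genotype, tumor tissue and library changed as one, they cannot be told apart.

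Members were chosen by their own transcript counts. A barcode was kept if it held at least 1000 UMIs (tagged transcript molecules), at least 400 genes and at most 30% mitochondrial UMIs. A kept barcode was called a Kupffer cell if it held at least 4 UMIs in all from Clec4f, Vsig4, Cd5l, C1qa, C1qb and C1qc, and at most 1 UMI in all from Stab2, Ptprb, Btnl9, Skap1, Dcn, Reln and Ebf1, which mark endothelial cells, lymphocytes and stellate cells. This gave 2070 Kupffer cells among 20158 kept WT barcodes and 4524 among 22214 kept N-LKO barcodes, or 6594 of 42372 in all. The kept barcodes outnumber the cells the study describes for each genotype, and the limit of 1000 UMIs is not the study's, so shares of kept barcodes are not shares of the study's cells. Median depth was 1416 UMIs in WT and 1562 UMIs in N-LKO, with 3182312 and 7840687 UMIs summed over the cells. The libraries shared 3 barcode sequences among their Kupffer cells.

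Kupffer cells seed the liver before birth and then maintain themselves with little input from blood monocytes. They clear particles, dying cells and aged red cells through scavenger receptors and the complement receptor Vsig4, and they recycle heme iron. When resident cells are lost, monocytes can enter the niche and acquire Clec4f, and in fatty liver some macrophages express Trem2, Gpnmb, Cd9 and Spp1, a program named after lipid-associated macrophages. Timd4, a receptor for phosphatidylserine on dying cells, is widely used to mark the embryo-derived resident cells.

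The marker genes that defined the cells are described first, without a test, because the members were selected on them. Levels are given as CPM, the UMIs of a gene per 1000000 UMIs summed over the Kupffer cells of each library. Clec4f, a lectin restricted to Kupffer cells, was at 1268 CPM in WT and at 703 CPM in N-LKO. The complement receptor gene Vsig4 was at 924 and 660.4 CPM. Cd5l, a secreted scavenger protein, was at 2959 CPM in WT and at 2381 CPM in N-LKO. For the C1q chains, C1qa was at 1447 and 1405 CPM, C1qb at 1355 and 1573 CPM and C1qc at 1171 and 1151 CPM. Clec4f, Vsig4 and Cd5l were thus lower in the N-LKO cells, whereas the C1q chains were near the same level or, for C1qb, higher. The median cell held 13 marker UMIs in WT and 11 in N-LKO.

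The barcodes next to each threshold were counted. With exactly 4 marker UMIs, just inside, there were 165 WT and 400 N-LKO barcodes, and with exactly 3, just outside, there were 331 and 505. At the other limit, 552 WT and 1394 N-LKO barcodes held 1 UMI of the excluded genes and were kept, while 219 and 659 held 2 and were not. Among barcodes that met the marker minimum, 1097 in WT (34.6%) and 1732 in N-LKO (27.7%) were set aside for the excluded genes. The name Kupffer cell fits the 3 restricted markers less well for some members: 126 WT cells (6.09%, 5.10 to 7.20%) and 763 N-LKO cells (16.9%, 15.8 to 18.0%) had no UMI of Clec4f, Vsig4 or Cd5l and entered through C1q alone. At this depth a cell that expresses a gene can show no UMI of it.

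Genes outside the rule also marked these cells in both libraries. Among genes of at least 50 CPM in Kupffer cells of both, those farthest above endothelial, monocyte, and T and NK barcodes were Folr2, Cd207, Kcnj16 and Fcna, by a fold that had 1 CPM added to each level. Folr2, a folate receptor of resident macrophages, was at least 15.2 times as high as in any of those sets, and Fcna, a ficolin that starts the lectin pathway of complement, at least 14.2 times. Slc40a1, the iron exporter ferroportin, was at least 7.41 times, and Il18bp, which binds and blocks interleukin 18, at least 12.4 times.

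Kupffer cells made up 10.3% (9.85 to 10.7%) of the kept barcodes in WT and 20.4% (19.8 to 20.9%) in N-LKO. Of the barcodes in 4 nonparenchymal sets (Kupffer, endothelial, monocyte, and T and NK), they made up 46.0% (44.5 to 47.4%) in WT and 58.0% (56.9 to 59.1%) in N-LKO. Cell suspensions were mixed in set parts, with tumor cells in N-LKO alone, so these shares describe the libraries. The log2 ratio of the shares was 0.99, and it was 0.40 with a mitochondrial limit of 10%, which left 856 and 845 Kupffer cells. Requiring 2 UMIs of Clec4f, Vsig4 and Cd5l alone gave 0.53, and a depth of 2000 UMIs gave 1.62.

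Nus1, the gene deleted in hepatocytes, differed in Kupffer cells by less than its counting error. It was at 84.5 CPM (74.7 to 95.3) in WT and at 81.2 CPM (75.1 to 87.8) in N-LKO, with a log2 ratio of -0.06 (-0.27 to 0.15). Over all kept barcodes it was at 76.2 CPM (73.2 to 79.3) in WT and at 65.9 CPM (63.4 to 68.6) in N-LKO. A 3′ count can arise outside the deleted part, so it does not check the deletion. Dhdds, which encodes the catalytic partner of NgBR, was at 24.2 and 25.5 CPM. Of 34 genes of dolichol synthesis and N-glycosylation, 28 were measured and none passed 2-fold in either direction, with a median log2 ratio of 0.00. The extremes were Ost4, a small subunit of oligosaccharyltransferase, from 117 to 74.9 CPM, and Srd5a3, which reduces polyprenol to dolichol, from 12.6 to 21.7 CPM.

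Across the genome, 9259 genes reached 10 CPM in at least 1 library and were compared, leaving out the 13 genes of the rule. In N-LKO Kupffer cells, 363 genes (3.92%) were higher by at least 2-fold and 476 (5.14%) were lower, and the median log2 ratio was -0.01. Throughout, a ratio is the log2 of the N-LKO level over the WT level, with 0.5 UMI added to both, unless other levels are named. The words rose and fell mean a change of at least 2-fold. A gene under 10 CPM in 1 library was compared only because the other was higher, which fixes its direction. This held for 185 of the genes that were higher and 148 that were lower. Among the list members named here it held for Cd163, Marco, Idi1, Steap3, Cxcl1, Clec4e, Ptgs2, Adam8, Slc7a11 and Ddit4. The same was true of Ly6c2, F13a1 and several genes of the ranking by size below.

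Free RNA that leaks from broken cells enters every droplet, so an expected free level is given beside key genes. It was taken from 18526 WT and 13674 N-LKO barcodes with fewer than 500 UMIs, scaled so that all hepatocyte marker UMIs in Kupffer cells would be free RNA. By that measure free RNA made up 42.3% of the Kupffer UMIs in WT and 38.1% in N-LKO. Those low barcodes held 8165016 and 6098603 UMIs in all, so on average they were not far under the limit of 500. Some or many of them can hold cells, which makes the estimate approximate.

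The resident identity genes were lower in the N-LKO Kupffer cells, with 3 receptor genes the lowest. All 22 genes of this list were measured: 6 fell, beside 5.14% of all genes, none rose, beside 3.92% of all genes, and 18 had a ratio under 0. The list median was -0.49, beside -0.01 over all genes. Cd163, the scavenger receptor for hemoglobin bound to haptoglobin, fell from 198 CPM (183 to 214) in WT to 4.08 CPM (2.79 to 5.76) in N-LKO, from 629 UMIs to 32. Its log2 ratio of -5.58 (-6.16 to -5.09) was the lowest of the list. The free level expected for Cd163 was 3.73 CPM in WT beside 0.187 CPM in N-LKO.

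Marco, a scavenger receptor that binds bacteria and modified lipoproteins, fell from 93.6 CPM (83.3 to 105) to 8.67 CPM (6.73 to 11), with a log2 ratio of -3.42 (-3.83 to -3.05). Timd4 fell from 162 CPM (148 to 176) to 34.3 CPM (30.3 to 38.7), with a log2 ratio of -2.23 (-2.45 to -2.02). Fcna fell from 302 CPM (283 to 322) to 85.1 CPM (78.7 to 91.8), with a log2 ratio of -1.83. The other members that fell were Spic, the transcription factor of red pulp and heme-handling macrophages, from 110.0 to 49.6 CPM, and Cdh5, which encodes VE-cadherin, from 193 to 92.5 CPM.

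Not all identity genes were lower to this extent. Folr2 was at 193 CPM (178 to 209) in WT and at 153 CPM (144 to 162) in N-LKO, with a log2 ratio of -0.34. The macrophage genes Adgre1, which encodes F4/80, and Csf1r, the receptor for the survival factor CSF1, had log2 ratios of -0.35 and -0.41. Nr1h3, which encodes LXR alpha and is needed for Kupffer identity, was at 228 and 175 CPM. Id3, another regulator of these cells, was at 360.4 and 206 CPM. Slc40a1 was at 1461 CPM in WT and at 790.0 CPM in N-LKO. Zeb2, a factor that maintains tissue macrophage identity, and Vcam1, an adhesion molecule, were on the other side, with ratios of 0.17 and 0.67.

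Genes of the lipid-associated macrophage program were higher in the N-LKO cells. Of 17 genes, 16 were measured, and 12 rose and none fell, beside 3.92% and 5.14% of all genes. All 16 had ratios above 0, with a median of 1.45. In T and NK barcodes 12 of 16 measured members were also higher by at least 2-fold, with a median of 1.46. Trem2, a lipid-sensing receptor, rose from 86.4 CPM (76.5 to 97.3) to 245 CPM (234 to 256), with a log2 ratio of 1.5 (1.32 to 1.69). Gpnmb, a glycoprotein of the lysosome and cell surface, rose from 179 CPM (165 to 195) to 493 CPM (477 to 509), with a log2 ratio of 1.46. The tetraspanin genes Cd9 and Cd63 rose from 45.6 to 141 CPM and from 83.6 to 339 CPM, and the 2.02 of Cd63 was the highest ratio of the list.

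Further members that rose serve lipid binding, matrix and acidification. Spp1, the secreted matrix protein osteopontin, rose from 71.6 to 226 CPM, with expected free levels of 7.61 and 60.2 CPM. The fatty acid carrier Fabp5 rose from 114 to 303 CPM. Mmp12, the macrophage elastase, rose from 319 to 873 CPM. Atp6v0d2, a proton pump subunit, rose from 45.6 to 147 CPM, and Itgax, which encodes CD11c, from 24.5 to 77.5 CPM. The 4 measured members under 2-fold were Lgals3, Colec12, Lpl and Plin2. Lpl, a lipase that frees fatty acids from lipoproteins, went from 906 to 1467 CPM, and Plin2, the coat protein of lipid droplets, from 292 to 323 CPM.

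**Figure D1:**
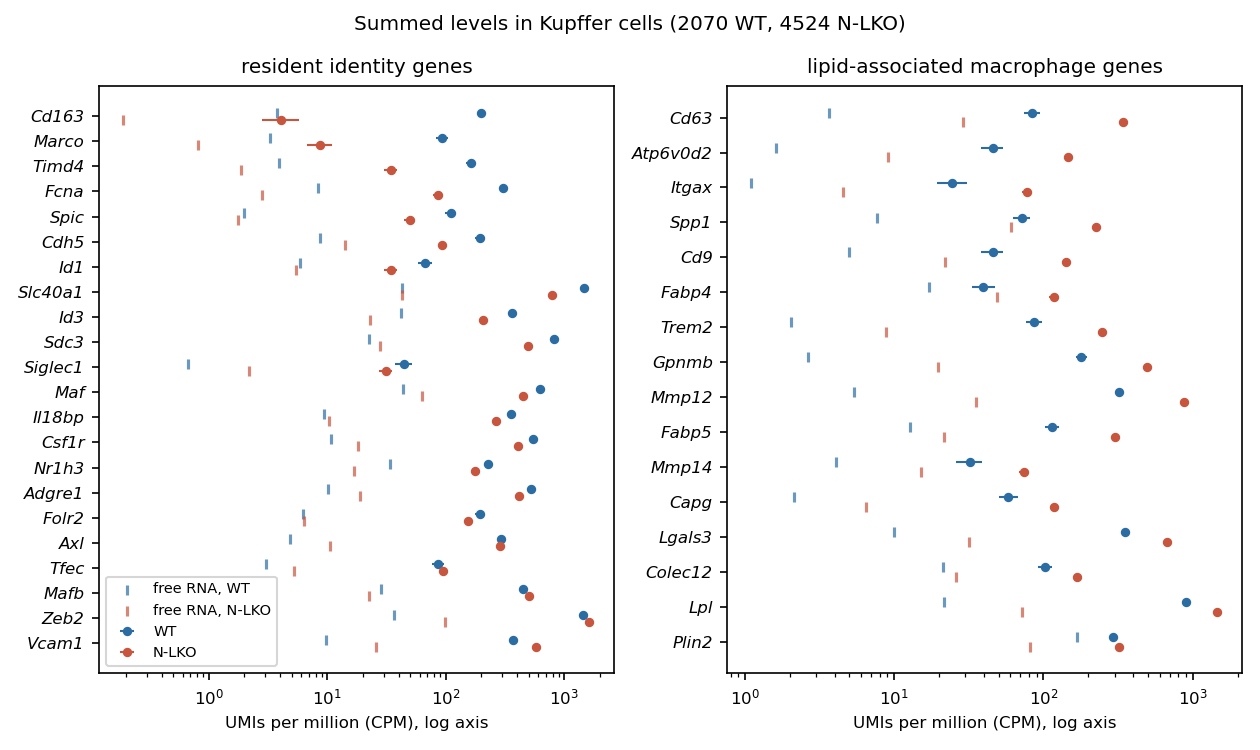
Each row is a gene and each point its summed level in Kupffer cells, in CPM on a log axis, with 95% Poisson intervals as bars (blue, WT, 2070 cells and red, N-LKO, 4524 cells). Vertical ticks give the expected free RNA level of each library. Cd163, Marco and Timd4 lie farthest to the left in N-LKO relative to WT, and all 16 lipid-associated genes lie to the right.

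The promoters of 5 genes, chosen after their values were seen, are shown with the 250 bases before their start sites, in RefSeq's annotation of GRCm38.p6, to set promoters of genes that fell beside promoters of genes that rose. Capitals mark any match, on either strand, to GAGGAA, a core of sites for PU.1 (the lineage factor of macrophages), or to the E-box sequences CACGTG and CATGTG, which factors of the MiT/TFE family can bind. The windows are chr6:124304401-124304650 on the plus strand for Cd163, chr1:120505025-120505274 on the minus strand for Marco, chr11:46810549-46810798 on the plus strand for Timd4, chr17:48346151-48346400 on the plus strand for Trem2 and chr6:49036268-49036517 on the plus strand for Gpnmb.
Cd163: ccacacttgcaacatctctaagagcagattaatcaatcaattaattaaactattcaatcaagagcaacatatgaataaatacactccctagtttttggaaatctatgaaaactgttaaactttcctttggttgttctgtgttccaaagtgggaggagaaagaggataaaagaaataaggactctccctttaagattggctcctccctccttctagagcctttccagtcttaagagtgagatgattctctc
Marco: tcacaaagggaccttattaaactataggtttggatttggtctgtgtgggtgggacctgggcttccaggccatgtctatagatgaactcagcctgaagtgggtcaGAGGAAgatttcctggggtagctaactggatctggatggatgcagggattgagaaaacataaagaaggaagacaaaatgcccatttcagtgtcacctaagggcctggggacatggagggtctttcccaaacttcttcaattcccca
Timd4: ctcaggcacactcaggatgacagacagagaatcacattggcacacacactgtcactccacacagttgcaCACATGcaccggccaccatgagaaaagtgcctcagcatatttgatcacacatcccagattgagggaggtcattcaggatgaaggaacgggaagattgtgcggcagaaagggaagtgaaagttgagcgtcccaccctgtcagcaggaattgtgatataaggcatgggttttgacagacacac
Trem2: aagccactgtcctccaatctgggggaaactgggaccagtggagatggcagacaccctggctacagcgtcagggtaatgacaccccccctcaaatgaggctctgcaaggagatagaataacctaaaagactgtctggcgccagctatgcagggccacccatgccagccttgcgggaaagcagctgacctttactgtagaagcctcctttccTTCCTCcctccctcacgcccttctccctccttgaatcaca
Gpnmb: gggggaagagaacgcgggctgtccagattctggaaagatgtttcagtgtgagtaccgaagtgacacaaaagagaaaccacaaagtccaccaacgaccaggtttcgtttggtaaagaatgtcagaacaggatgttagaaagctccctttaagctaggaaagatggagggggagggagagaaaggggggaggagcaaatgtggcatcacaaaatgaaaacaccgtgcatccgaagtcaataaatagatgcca
GAGGAA or its reverse complement occurs once in the Marco window and once in the Trem2 window, and in 23.3% of 32851 promoter windows of this length. CATGTG, written on the other strand as CACATG, occurs once in the Timd4 window and in 12.3% of windows. CACGTG, found in 6.02% of windows, is in none of the 5. A match describes these letters only.

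The shares of cells with a transcript showed the same pattern at equal depth. Each barcode was thinned to 1000 UMIs, and the unthinned share follows in each sentence. Cd163 was found in 15.7% (14.2 to 17.4%) of WT Kupffer cells and 0.508% (0.323 to 0.762%) of N-LKO Kupffer cells, unthinned 19.1% and 0.641%. Timd4 was found in 13.9% (12.4 to 15.4%) and 2.90% (2.43 to 3.43%), unthinned 18.9% and 4.55%. Marco was found in 6.71% and 0.619%, unthinned 8.36% and 0.796%. In the other direction, Trem2 was found in 7.44% (6.35 to 8.66%) of WT cells and 20% (18.8 to 21.2%) of N-LKO cells, unthinned 10.4% and 29.3%. Gpnmb was found in 7.49% and 24.8%, unthinned 10.1% and 32.8%.

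Background was read from T and NK barcodes, with median depths of 1220 UMIs in WT and 1322 UMIs in N-LKO. They were taken to lack these genes, which was not tested. There, Cd163 was found in 0.928% of WT barcodes and in 0 of 579 N-LKO barcodes, a count that allows a share of up to 0.518%. In endothelial barcodes, with median depths of 1239 and 1372 UMIs, it was found in 0.411% in WT and in 0 of 1908 in N-LKO, which allows up to 0.157%. The 0.508% of N-LKO Kupffer cells was above the endothelial limit and under the looser limit of the T and NK barcodes. For Marco, 0 of 539 barcodes in WT and 0 of 579 in N-LKO held a UMI, which allows up to 0.557% and 0.518%, and its share of endothelial barcodes was 0.411% and 0.105%. Timd4 was found in 0.742% and 0.173% of T and NK barcodes. Trem2 was found in 0.186% and 1.90%, and Gpnmb in 0.186% and 3.97%. Spp1 was closer to its background: it was found in 2.42% of Kupffer cells of WT and 11.6% of those of N-LKO, and in 1.86% and 9.33% of T and NK barcodes. For Cd9 the shares were 4.06% and 12.6% in Kupffer cells, 1.30% and 4.66% in T and NK barcodes, and 6.11% and 9.80% in endothelial barcodes. The shares of Trem2 and Gpnmb in Kupffer cells were several times those of T and NK barcodes in both libraries. That of Spp1 was near its share of T and NK barcodes.

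**Figure D2:**
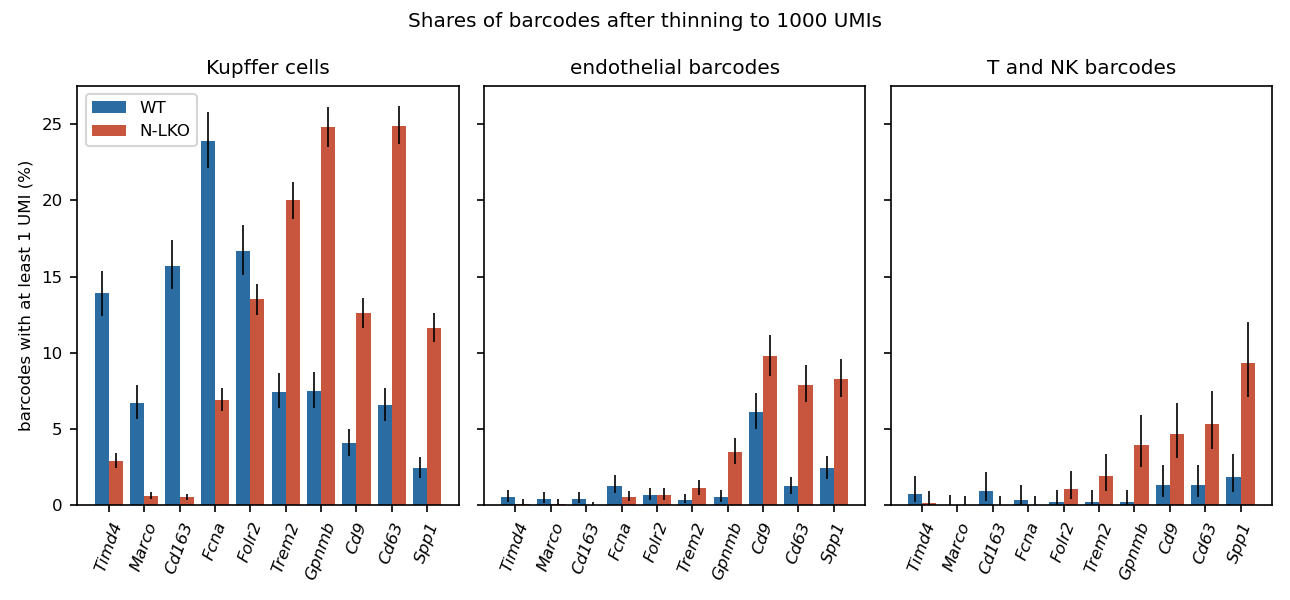
Bars give the percent of barcodes with at least 1 UMI of each gene after thinning to 1000 UMIs, with 95% Clopper-Pearson intervals, for Kupffer cells, endothelial barcodes and T and NK barcodes (blue, WT and red, N-LKO). Timd4, Marco, Cd163 and Fcna are lower and Trem2, Gpnmb and Cd63 higher in N-LKO Kupffer cells. Trem2, Gpnmb and Cd63 are also higher in N-LKO in the endothelial and the T and NK barcodes. Cd63 goes from 1.23 to 7.91% in endothelial barcodes and from 1.30 to 5.35% in T and NK barcodes. Spp1 in T and NK barcodes reaches 9.33% in N-LKO.

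The 2 programs were compared in the same thinned cells. Timd4, Marco or Cd163 was found in 578 WT Kupffer cells (27.9%) and in 177 N-LKO Kupffer cells (3.91%). In WT, Trem2, Gpnmb or Cd9 was found in 6.06% (4.25 to 8.32%) of the cells with a resident receptor and in 19.5% (17.5 to 21.6%) of those without. In N-LKO the shares were 37.3% (30.1 to 44.9%) and 44.3% (42.8 to 45.8%), and over all Kupffer cells they were 15.7% in WT and 44.0% in N-LKO. In these libraries, N-LKO cells with a resident receptor found thus held the lipid-associated transcripts more often than WT cells of either kind. Background was also higher in N-LKO: T and NK barcodes held Trem2, Gpnmb and Cd9 in 1.90%, 3.97% and 4.66%. In WT those shares were 0.186%, 0.186% and 1.30%. Of the receptors, Timd4 was the one found in most N-LKO Kupffer cells (131 cells).

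Levels were next compared within members split by the marker UMIs found. Clec4f was found in 1390 WT cells (67.1%) and 2008 N-LKO cells (44.4%). Within these Clec4f-positive cells, Cd163 was at 277 CPM (255 to 300) in WT and at 5.99 CPM (3.71 to 9.16) in N-LKO. Timd4 was at 227 CPM (207 to 248) and 61.9 CPM (54.0 to 70.7), Marco at 121 and 14 CPM, and Fcna at 408 and 146 CPM. Folr2, in contrast, was at 260.4 CPM (239 to 283) in WT and at 268 CPM (251 to 285) in N-LKO, so its intervals overlapped. Trem2 was at 61.2 and 173 CPM and Gpnmb at 112 and 315 CPM in the same cells. Clec4f is a gene of the rule and this split was chosen after the data were seen, so these values are a description.

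Cells with no UMI of Clec4f, Vsig4 or Cd5l had another profile. In them Timd4 was found as 1 UMI in WT and 5 UMIs in N-LKO, and Ccr2, the receptor that draws monocytes from the blood, was at 289 CPM (218 to 376) and 273 CPM (245 to 303). Ccr2 was at 23.2 CPM in Clec4f-positive WT cells and 62.2 CPM in Clec4f-positive N-LKO cells. Trem2 was at 158 CPM (106 to 225) in WT and at 304 CPM (274 to 336) in N-LKO. Fabp5 was at 415 CPM (329 to 518) and 489.6 CPM (452 to 529.9), with overlapping intervals. The Ccr2 intervals of the libraries overlapped in these cells, which were a larger part of the N-LKO members.

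**Figure D3:**
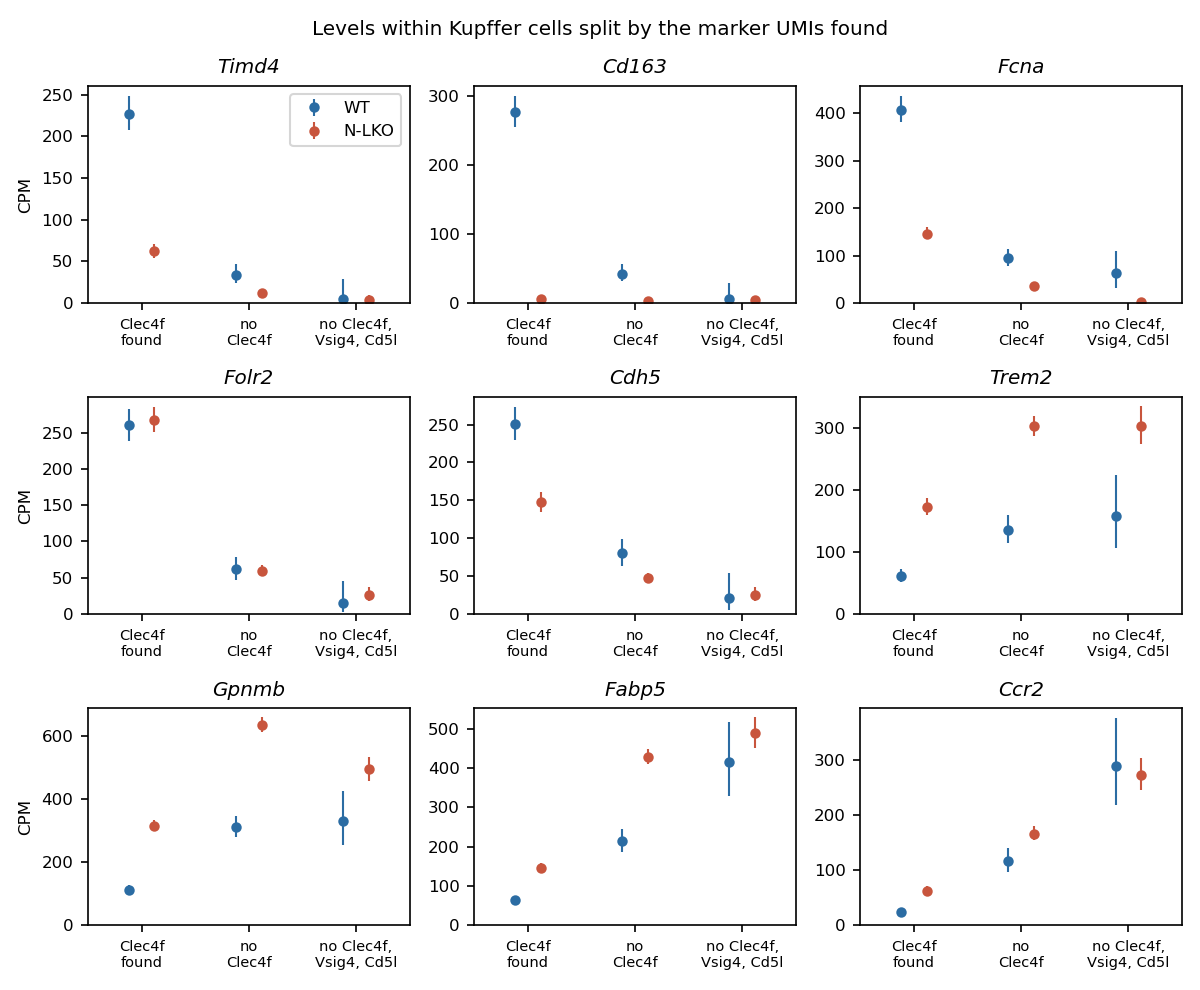
Each panel gives the level of 1 gene (CPM, linear axis from 0) in Kupffer cells split by whether Clec4f, or any of Clec4f, Vsig4 and Cd5l, was found (blue, WT and red, N-LKO), with 95% Poisson intervals as bars. Cd163 in Clec4f-positive cells goes from 277 to 5.99 CPM while Folr2 is at 260.4 and 268 CPM.

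Of the monocyte genes Ccr2, Cx3cr1 and Ly6c2, Ccr2 passed 2-fold over all Kupffer cells, and Ly6c2 only just did. Ccr2 also passed it in endothelial and in T and NK barcodes. It went from 54.7 to 119.9 CPM, with a log2 ratio of 1.13 (0.90 to 1.37), beside 1.45 in endothelial barcodes and 1.09 in T and NK barcodes. Cx3cr1, the fractalkine receptor, was at 68.5 and 128 CPM, a ratio of 0.90 (0.69 to 1.12), beside 1.82 in endothelial barcodes and 1.52 in T and NK barcodes. Ly6c2, the surface marker of classical monocytes, was at 9.43 and 19.1 CPM with a wide interval (0.45 to 1.64) around 1.00. As it was under 10 CPM in WT, its direction was fixed by the filter. These levels were under the 11.4 and 33.8 CPM of endothelial barcodes, and the expected free levels were 0.828 and 3.25 CPM. Whether they are background was not tested. F13a1, which encodes a coagulation factor subunit made by monocytes, went from 8.17 to 52.4 CPM, a direction that the 10 CPM filter fixed. In monocyte barcodes the log2 ratios were -0.19 for Ccr2, 0.30 for Cx3cr1 and -0.63 for Ly6c2. Monocyte barcodes were themselves chosen by UMI counts of marker genes, so the levels of any such gene there are partly set by the choice. Summed over the 14 genes of the monocyte list, of which all were detected in both libraries, the level was 477 CPM in WT against 853 CPM in N-LKO, with free levels of 118 and 208 CPM. Its part in the differences of other genes was not tested.

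Among scavenger and phagocytic receptors, 19 of 20 genes were measured, with a median of 0.07. The 2 that fell were Marco and Timd4 and none rose, beside 5.14% and 3.92% of all genes. Stab1, a receptor for modified lipoproteins shared with endothelium, was highest at 40.2 and 78.6 CPM, a ratio of 0.96, followed by the Fc receptor gene Fcgr2b at 0.74. The mannose receptor Mrc1 was at 646 and 461 CPM, and Mertk, a receptor for dying cells, at 624 and 751 CPM. Marco and Timd4 are also in the resident identity list.

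In the complement list, all 16 genes were measured and the median was 0.07. Of these, 2 rose and none fell, beside 3.92% and 5.14% of all genes. The C5a receptor C5ar1 rose from 38.0 to 77.4 CPM, and Itgam, the integrin chain of complement receptor 3, from 24.8 to 51.1 CPM. Their ratios of 1.02 and 1.04 stood at the threshold, and they were under 2-fold in 8 and 5 of 16 alternative settings. The lowest ratios were those of C2, at 29.5 and 15.0 CPM, and Cd59a, at 41.8 and 26.3 CPM. With free RNA subtracted the list median was -0.72.

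Iron and heme genes went both ways. Of 17 genes, all measured, Cd163 fell and Cp and Steap3 rose, beside 5.14% and 3.92% of all genes. In the list, 11 had ratios under 0 and the median was -0.21. Hmox1, the enzyme that opens heme, was at 487 CPM in WT and at 338 CPM in N-LKO. Fth1, the heavy chain of ferritin, was at 4954 and 5645 CPM, with free levels of 2406 and 752 CPM. Cp, the copper ferroxidase secreted mainly by hepatocytes, went from 271 to 569 CPM, and its free level went from 164 to 433 CPM. Steap3, a ferric reductase of endosomes, rose from 4.71 to 14.4 CPM. The lowest ratio after Cd163 was that of Aco1, at 98.0 and 50 CPM.

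For lysosome genes, 24 of 24 were measured, none passed 2-fold and the median was 0.15, which was -0.07 with free RNA subtracted. Ctsd, an aspartic protease, went from 1211 to 1748 CPM, and Galc, which degrades galactolipids, from 48.7 to 73.8 CPM. Ctsc and Lgmn, a cysteine protease and legumain, were at the lower end with ratios of -0.49 and -0.34.

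Cholesterol genes were read as an efflux list and a synthesis list. Among 13 LXR target and efflux genes, all measured, the median was 0.23. None rose and only Srebf1 fell, beside 3.92% and 5.14% of all genes. Abca1, the cholesterol exporter, was at 531 CPM in WT and at 832 CPM in N-LKO, and Scd2, a fatty acid desaturase, at 68.5 and 124 CPM. Srebf1, which encodes the lipogenic factor SREBP1, fell from 53.4 to 21.6 CPM, with free levels of 42.3 and 13.3 CPM. Rxra, the partner of LXR, was at 105 and 68.9 CPM.

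Of 20 genes of sterol synthesis and uptake, 13 were measured, and 12 had ratios under 0, with a median of -0.48. In this list 3 fell and none rose, beside 5.14% and 3.92% of all genes. Insig1, which holds SREBP in the endoplasmic reticulum, fell from 77.3 to 24.9 CPM, with free levels of 50.4 and 12.9 CPM. Idi1 and Pmvk, enzymes of the mevalonate pathway, fell from 22.3 to 8.55 CPM and from 23.6 to 11.6 CPM. Srebf2, the master factor of the pathway, was at 20.7 and 23.3 CPM. The median was also negative in T and NK barcodes, at -0.80, and in endothelial barcodes, at -0.60.

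MHC class II genes were slightly higher as a group. Of 11 genes, 7 were measured, and all 7 had ratios between 0.21 and 0.49, none past 2-fold, with a median of 0.39. Cd74, the invariant chain, was at 2483 CPM in WT and at 3492 CPM in N-LKO, H2-Aa at 1067 and 1465 CPM, Ciita, the transactivator, at 53.7 and 65.4 CPM, and H2-DMb1, a peptide-loading chain, at 95.2 and 110.4 CPM. The median was 1.04 in T and NK barcodes, 1.06 in endothelial barcodes and -0.60 in monocyte barcodes. Among 17 MHC class I genes, none passed 2-fold and the median was -0.13, which turned to 0.09 once ratios were set against genes of like genomic span. Psmb9 and Tap1, of the immunoproteasome and the peptide transporter, had ratios of -0.66 and -0.50, and Tap2 and Nlrc5 had 0.22 and 0.12.

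Interferon-stimulated genes were near the background of all genes. Of 24 genes, 23 were measured, Gbp2 alone fell and none rose, beside 5.14% and 3.92% of all genes, and the median was -0.14. Gbp2, a guanylate-binding protein induced by interferon, fell from 60.3 to 27.5 CPM, and Irf7, the amplifier of the type I response, was at 92.7 and 50 CPM. Ifih1, the RNA sensor MDA5, was highest at 68.8 and 98.3 CPM, before Oasl2 at 57.5 and 65.6 CPM.

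Cytokines and chemokines changed in both directions. Of 24 genes, 21 were measured, 4 rose and 4 fell, beside 3.92% and 5.14% of all genes, with a median of 0.14. Cxcl2 and Cxcl1, which attract neutrophils, rose from 55.0 to 173 CPM and from 8.17 to 24.2 CPM. Ccl9, a chemokine of myeloid cells, rose from 78.2 to 235 CPM, and Tnf, the inflammatory cytokine, from 18.5 to 40.3 CPM. Cxcl13, which attracts B cells, fell from 30.2 to 13.5 CPM, but was higher, with a ratio of 1.05, at a depth of 2000 UMIs. Ccl24, an eosinophil chemokine, fell from 129 to 64.2 CPM, Cxcl9, a ligand of CXCR3, from 60.3 to 29.3 CPM, and Cxcl12 from 44.9 to 19.3 CPM, with free levels of 36.4 and 14.7 CPM for the last. Il1b, the cytokine released by the inflammasome, was at 246 and 155 CPM.

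Inflammatory regulators and remodelling genes held a few that rose. Of 20 NF-kB and inflammasome genes, all measured, 2 rose and none fell, beside 3.92% and 5.14% of all genes. The median was 0.25. Clec4e, a lectin that senses dead cells, rose from 4.09 to 20 CPM, and Ptgs2, the inducible cyclooxygenase, from 2.51 to 13.9 CPM. Both were under 10 CPM in WT, from 13 and 8 UMIs, so the direction of these 2 was fixed by the filter. At the lower end, Sod2 was at 148 and 91.7 CPM and Casp1 at 42.7 and 32.8 CPM. Of 20 growth factor and matrix genes, 16 were measured, with a median of 0.24. In this list 3 rose and none fell, beside 3.92% and 5.14% of all genes. The 3 that rose were Mmp12, Mmp14 and Adam8, all metalloproteinases, and Adam8 went from 8.17 to 26.3 CPM. Hbegf and Igf1, growth factors, had ratios of -0.50 and -0.40.

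Genes of energy and redox metabolism had mostly lower levels in N-LKO Kupffer cells, and the free levels of those that led the lists were lower as well. For the TCA cycle and respiratory chain, 59 of 59 genes were measured. Of these, 9 fell and none rose, beside 5.14% and 3.92% of all genes. All 59 had ratios under 0, with a median of -0.68. Uqcrq, of complex III, fell from 854 to 309 CPM, and its expected free level went from 797 to 195 CPM. Cox6c, of complex IV, fell from 767 to 334 CPM, and its free level from 726 to 165 CPM. Cox4i1, of complex IV, had the smallest difference, at -0.13. The direction turned when expected free RNA was subtracted: the list median was then 0.22, with Uqcrq at 0.90 and Cox6c at 1.92. The median was -1.07 in both endothelial barcodes and T and NK barcodes.

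Of 25 NRF2 and antioxidant genes, 24 were measured, 5 fell and 1 rose, beside 5.14% and 3.92% of all genes. The median was -0.36, and it was -0.02 after subtraction of free RNA. Catalase, Cat, fell from 1069.7 to 320.3 CPM with free levels of 861 and 253 CPM, and the glutathione transferase gene Gsta3 from 549.6 to 154 CPM with free levels of 577 and 124 CPM. Gstm1, Prdx6 and Sod1 also fell, with ratios of -1.13, -1.33 and -1.36. Slc7a11, the cystine importer that supplies glutathione synthesis, rose from 5.66 to 38.9 CPM, a ratio of 2.74 (2.10 to 3.56), with free levels of 1.19 and 9.75 CPM. Fth1 had a ratio of 0.19.

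The ER stress list had 21 of 24 genes measured, none past 2-fold, and a median of 0.22 that was -0.01 after subtraction of free RNA. Creld2 and Sdf2l1, chaperone-linked targets of the unfolded protein response, went from 15.4 to 28.8 CPM and from 21.1 to 38.8 CPM. Atf4 and Dnajb9 were lower, with ratios of -0.34 and -0.40. Hspa5, the chaperone BiP, was at 534 and 714 CPM, with free levels of 108 and 244 CPM. Of 26 immediate early and heat shock genes, 23 were measured and the median was 0.01. Fosb alone rose, from 19.2 to 43.2 CPM, and none fell, beside 3.92% and 5.14% of all genes. Klf4 followed at 0.60, and Dusp1 and Klf2 were lowest at -0.60 and -0.54.

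Glucocorticoid-responsive genes included Zbtb16 and Fkbp5, which both rose. All 13 were measured, 4 rose and none fell, beside 3.92% and 5.14% of all genes, and the median was 0.26. Zbtb16, a transcription factor induced by glucocorticoids, rose from 20.1 to 142 CPM, a ratio of 2.81 (2.46 to 3.21), with free levels of 10.6 and 66.5 CPM. Fkbp5, a chaperone of the glucocorticoid receptor, rose from 35.2 to 176 CPM, with free levels of 5.49 and 29.7 CPM. Ddit4 and Cdkn1a rose from 4.71 to 19.8 CPM and from 36.1 to 79.2 CPM. Errfi1 and Per1 were lowest at -0.28 and -0.21. Other cells of the libraries had like differences: Zbtb16 went from 25.0 to 255 CPM in endothelial barcodes and from 62.8 to 213 CPM in T and NK barcodes, and Fkbp5 from 50.4 to 186 CPM and from 65.6 to 149 CPM.

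Cell cycle genes showed no change past 2-fold, with 18 of 25 measured and a median of -0.05. Mki67, the proliferation marker, was at 39.0 and 43.0 CPM and was found in 2.56% and 2.65% of thinned Kupffer cells, unthinned 4.11% and 4.38%, beside 1.64% and 1.99% of endothelial barcodes. Cenpf and Stmn1 were highest at 0.72 and 0.41, and Mcm5 and Tyms lowest at -0.70 and -0.69.

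**Figure D4:**
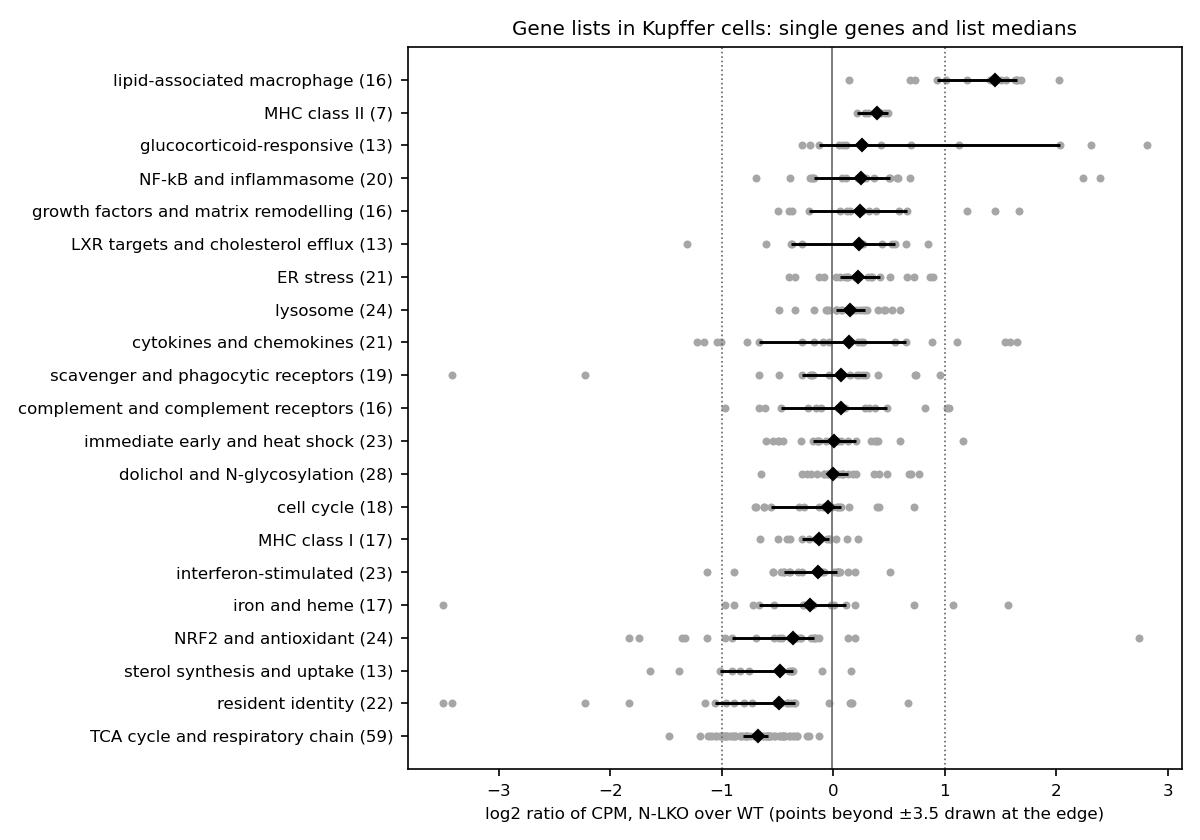
For each gene list (number of genes measured in brackets), grey points are the log2 ratios of single genes, N-LKO over WT, black diamonds the medians, and bars 95% order-statistic intervals over the genes of the list, which are not replicates. Dotted lines mark 2-fold. The lipid-associated macrophage list lies highest, at 1.45, and the TCA cycle and respiratory chain and resident identity lists lowest, at -0.68 and -0.49.

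By a rule of size, the 10 genes with intervals farthest above and the 10 farthest below 0 were listed. They were drawn from genes of at least 20 CPM whose level was at least 2 times the free level. Both limits applied only in the library with the higher level. Those that fell were Cd163, Marco, Timd4, Chp2, Gbp2b, Fcna, Cyp26b1, Acly, Gm17268 and Ncam2. Cd163, Marco, Chp2, Cyp26b1 and Gm17268 were under 10 CPM in N-LKO, so the filter fixed their direction. Chp2, a calcineurin-like calcium-binding protein, fell from 31.7 to 6.89 CPM, Gbp2b, an interferon-induced guanylate-binding protein, from 89.2 to 22.7 CPM, and Cyp26b1, which breaks down retinoic acid, from 27.0 to 6.25 CPM. Acly, which makes cytosolic acetyl-CoA for lipid synthesis, fell from 184 to 66.7 CPM, with free levels of 89.2 and 16.4 CPM. The neural adhesion gene Ncam2 fell from 32.7 to 10.3 CPM, and Gm17268 from 30.8 to 9.57 CPM.

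Those that rose were Iglc1, Slpi, Gm43305, Slc15a2, Pdzrn3, S100a8, Il1r1, St18, Ighg2c and Zbtb16. Iglc1, Slpi, Gm43305, Slc15a2, Pdzrn3 and Ighg2c were under 10 CPM in WT, so the filter fixed their direction. St18, a zinc finger factor, rose from 15.1 to 95.3 CPM, and was at 15.9 CPM in T and NK barcodes of N-LKO and 12.8 CPM in endothelial barcodes. Slpi, a secreted protease inhibitor, rose from 3.77 to 58.9 CPM, beside 37.5 CPM in N-LKO T and NK barcodes. Il1r1, the receptor for interleukin 1, rose from 15.7 to 98.8 CPM, beside 159 CPM in N-LKO T and NK barcodes. For Gm43305, Slc15a2 and Pdzrn3 the N-LKO Kupffer levels were 46.2, 36.1 and 36.2 CPM, and those of T and NK barcodes were 73.9, 34.1 and 59.1 CPM. Among these 6 genes, St18 had the highest ratio of the Kupffer level to that of T and NK barcodes in N-LKO.

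The remaining 3 are genes of plasma cells and neutrophils. The immunoglobulin genes Iglc1 and Ighg2c went from 4.40 to 82.0 CPM and from 2.20 to 21.7 CPM, and S100a8, a calcium-binding protein of neutrophils, from 14.8 to 99.6 CPM. The whole plasma cell list (7 of 7 genes detected in both libraries) summed to 369 CPM in WT and to 1098 CPM in N-LKO, and the neutrophil list (9 and 10 of 10 genes) to 85.2 and 428 CPM. S100a8 was found in 0.628% of Kupffer cells of WT and 4.24% of those of N-LKO, beside 1.48% and 5.70% of T and NK barcodes. Igkc, an immunoglobulin gene, was found in 4.06% and 11.9% of Kupffer cells, beside 6.31% and 18.7% of T and NK barcodes. The shares of both genes were thus below those of T and NK barcodes. Expected free levels were 73.0 and 261 CPM for the plasma cell list and 25.7 and 165 CPM for the neutrophil list. Whether these transcripts are background was not tested. Without the cells that held any UMI of S100a8, S100a9 or immunoglobulin genes, 1848 and 2935 cells remained, 379 genes rose and 481 fell.

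Transcripts that mark other cell types were also found in the Kupffer cells, and their source was not tested. The hepatocyte list (20 of 20 genes) summed to 29274 CPM in WT and to 16579.7 CPM in N-LKO, all of which the free RNA estimate takes as free. The sinusoidal endothelial list (14 of 14) was at 416 and 426 CPM, the dendritic list (12 of 12) at 294 and 324 CPM, the stellate list (12 of 12) at 108 and 118 CPM, the T list (12 of 12) at 97.4 and 143 CPM, and the natural killer list (10 of 10) at 80.8 and 69.5 CPM. The cholangiocyte list (7 and 8 of 8) was at 120.0 and 297 CPM and includes Spp1. The erythroid list (5 and 6 of 7) was at 195 and 173 CPM, and the platelet list (4 of 6, without Gp9 and Gp1bb) at 59.4 and 83.5 CPM. The B list was at 443 and 238 CPM, of which Bank1 alone was 414 and 202 CPM. Their part in the results was not tested.

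Gene span moved with the comparison. In the fifth of genes with the shortest span in the GENCODE M21 annotation (median 5.17 kb) the median ratio was -0.25, and in the fifth with the longest (138 kb) it was 0.28. Malat1, a nuclear RNA, was at 9704 CPM in WT and at 12108 CPM in N-LKO, and mitochondrial genes made up 11.8% and 14.9% of the UMIs. Relative to genes of like span, the resident identity median was -0.46 and the lipid-associated median 1.59, and the number of genes past 2-fold was 319 higher and 390 lower.

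The same lists were read in other cells of the libraries. The resident identity median was -0.49 in Kupffer cells, -0.22 in 798 N-LKO against 194 WT monocyte barcodes, 0.13 in endothelial barcodes and 1.07 in T and NK barcodes, where fewer of its genes were measured (15 to 17 of 22). The lipid-associated median was 1.45 in Kupffer cells, 0.61 in monocyte barcodes, 1.31 in endothelial barcodes and 1.46 in T and NK barcodes. The levels themselves were far apart: in N-LKO, Gpnmb was at 493 CPM in Kupffer cells, 51.5 CPM in monocyte barcodes, 37.8 CPM in endothelial barcodes and 40.9 CPM in T and NK barcodes. Trem2 was at 245, 45.8, 13.2 and 13.6 CPM in the same order. With 1 library per group these differences between cell sets were not tested.

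**Figure D5:**
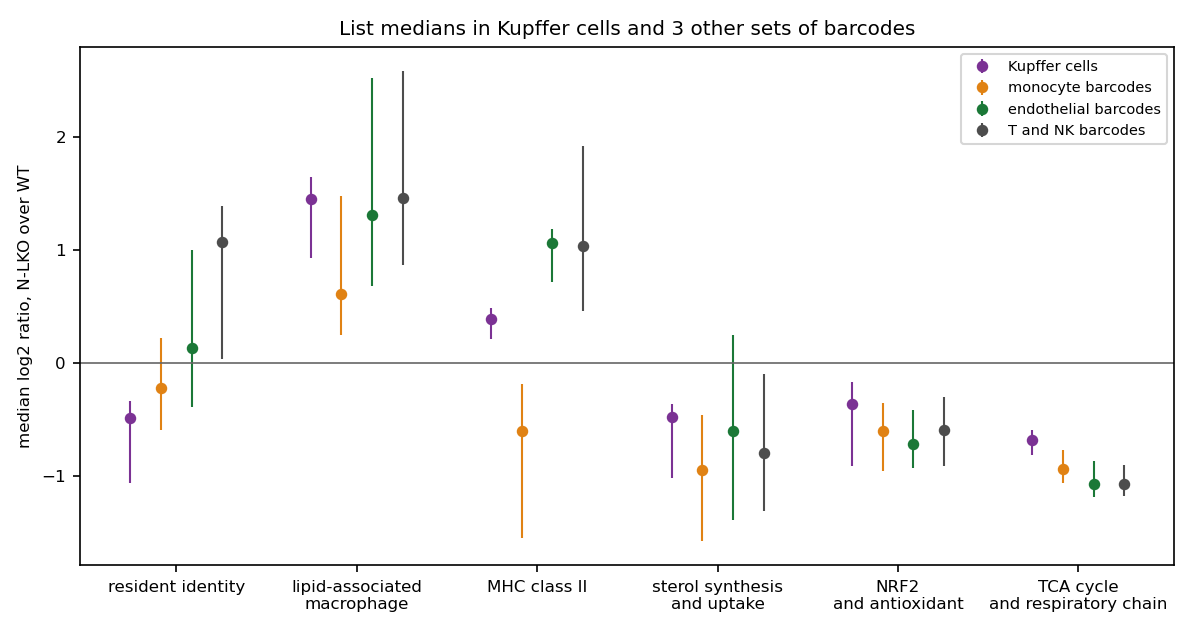
Points are the median log2 ratios of 6 gene lists, N-LKO over WT, in Kupffer cells and in monocyte, endothelial, and T and NK barcodes, with 95% order-statistic intervals over genes as bars. The resident identity median is -0.49 in Kupffer cells, -0.22 in monocyte barcodes, 0.13 in endothelial barcodes and 1.07 in T and NK barcodes. Its intervals in monocyte (-0.59 to 0.22) and endothelial barcodes (-0.39 to 1.00) run from negative to positive. The TCA cycle and respiratory chain median is negative in all 4 sets.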

How the data were processed

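Droplet libraries of liver (WT) and liver plus tumor (N-LKO) were deposited as matrices of raw UMI counts per gene and barcode, which the authors made with Cell Ranger 7.1.0 per the file headers. Submitters' notes also name Seurat and mm9. The matrices were read without further normalization. UMIs were summed over the Kupffer cells of each library and given as CPM with exact Poisson intervals. Ratios had exact conditional binomial intervals and shares Clopper-Pearson intervals, all at 95%. With 1 library per group, no test between groups was made and nothing says how many mice each library holds. Calculations ran in Python 3.11.15 with scanpy 1.11.5, scipy 1.17.1, pandas 2.3.3 and numpy 2.4.6, and figures in matplotlib 3.10.9. The ratios and their intervals were tested on simulated Poisson counts with known fold changes, which hold no spread between cells, libraries or animals. Doublets were kept in the main values, and an alternative left out barcodes with a Scrublet score of 0.25 or more. Members and lists were chosen with earlier results of these data known. Named genes were a set of fixed genes, the 2 highest and 2 lowest of each list and the 10 farthest from 0 in each direction over all genes. A few genes that this rule gave are not reported here. Other members named, such as Hmox1, Il1b and Mertk, were chosen after their values were seen. Gene spans came from GENCODE M21 (GRCm38), and promoters from RefSeq.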

Additional observations from a re-analysis of the deposited data

How the results depend on the processing

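No paired analysis was possible because each group has 1 library. The log2 ratio of Kupffer shares was 1.62 at 2000 UMIs (274 and 1146 cells), 0.40 at a mitochondrial limit of 10%, 0.53 with Clec4f, Vsig4 and Cd5l alone, 1.13 with C1q alone and 0.90 with no excluded UMI. Genes 2-fold higher numbered 746 at the 10% limit and 572 with free RNA subtracted. The 50 CPM filter gave 129 higher and 257 lower, and no filter 2876 and 2189. Of genes past 2-fold, 43.3% were higher in the reported values, 60.9% at the 10% limit, 58.7% with free RNA subtracted and 56.8% with no filter. Medians at 2000 UMIs were -0.26 for resident identity, 0.85 for lipid-associated macrophage, -0.02 for MHC class I and -0.55 for TCA cycle, and Cxcl13 was 1.05. With Clec4f, Vsig4 and Cd5l alone they were -0.24, 1.72, 0.29 for lysosome and 0.51 for MHC class II. At the 10% limit, sterol was -0.25 and MHC class II 0.16, and at 500 UMIs MHC class II was 0.50. Free RNA subtracted gave complement -0.72, lysosome -0.07, MHC class I -0.29, dolichol -0.07, ER stress -0.01, TCA cycle 0.22, NRF2 -0.02, Uqcrq 0.90 and Cox6c 1.92. Against genes of like span, MHC class II was 0.60, MHC class I 0.09, TCA cycle -0.49, immediate early 0.25 and cell cycle 0.14. The cause of these differences was not tested. Of 51 named genes past 2-fold, 28 passed it in all 16 alternatives, and 810 of 813 values kept their direction. C5ar1 and Ly6c2 were under 2-fold in 8. Restricting members to cells with a Clec4f UMI, or leaving out cells with S100a8, S100a9 or immunoglobulin UMIs, was chosen after seeing the data. Gsta3 had no value with free RNA subtracted, nor had Iglc1 and S100a8 once those cells were left out.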
